A study of Rattus norvegicus with 10 samples.

Results

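The mitochondrial rRNA transcription unit is the stretch of heavy-strand mitochondrial DNA that holds the genes for tRNA-Phe, 12S rRNA, tRNA-Val, 16S rRNA and tRNA-Leu-UUR. Its members were taken as the features listed on chromosome MT with a start below 2700, which gave 5 of the 37 mitochondrial features and 5 of 26404 features in all. Their reads were compared in right cerebral cortex from fetal rats of the Sprague Dawley strain, aged embryonic day 21 and taken 24 h after the dam received either oxytocin, at 100 mcg per kg intravenously, or saline. Each group held 5 fetuses from 5 separate dams, and RNA of high integrity was selected with oligo-dT before sequencing. Oxytocin is the peptide hormone that makes the uterus contract, and the study asked how contractions driven by it in excess alter fetal cortical transcripts. Library totals ran from 18723390 to 30404127 assigned counts after oxytocin and from 18555172 to 20776414 after saline.

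Mammalian mitochondrial DNA is copied into long RNAs that carry many genes at a time, and the tRNAs between the other genes act as cut marks: RNase P cleaves at their upstream end and ELAC2 at their downstream end. The 12S rRNA then becomes the backbone of the small subunit of the mitochondrial ribosome and the 16S rRNA that of the large subunit, so both are needed in equal numbers to make the 13 proteins encoded in this genome. A mitochondrial tRNA, Val or Phe depending on the species, is also built into the large subunit. Most mitochondrial mRNAs carry poly(A) tails, while the rRNAs end in short runs of A and are the far more abundant class in total RNA. Oligo-dT selection is used to enrich RNAs with poly(A) tails. The rRNA reads found after it are called the remainder here, and how much rRNA it removed was not measured. In bulk tissue, fewer cells of a type and less RNA per cell cannot be told apart.

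The 5 features lie head to tail on the plus strand with 0 bases between them, in the coordinates of Rnor_5.0, the build named in the submitters' processing notes. The tRNA-Phe gene (ENSRNOG00000031780) spans MT 1 to 67, followed by the 12S rRNA gene (ENSRNOG00000030478) at MT 68 to 1025. The tRNA-Val gene (ENSRNOG00000029171) spans MT 1026 to 1093 and the 16S rRNA gene (ENSRNOG00000043866) MT 1094 to 2664. The tRNA-Leu-UUR gene (ENSRNOG00000032112), at MT 2665 to 2739, closes the unit, and mt-nd1, for a subunit of respiratory complex I, starts at the next base. All 5 are listed as a single exon without introns. The files pair no identifier with a name, so the names follow the fixed gene order of mammalian mitochondrial DNA, and the listed strand matched that order for 37 of 37 features.

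Both rRNAs were readily detected after oligo-dT selection, and neither differed between the groups beyond the spread between fetuses. The 12S rRNA stood at 1246, 1384, 1412, 1219 and 1098 CPM (counts scaled to the same library total) in oxytocin replicates 1 to 5. In saline replicates 1 to 5 it stood at 1595, 1473, 1248, 1300 and 894 CPM. The saline group thus held both the highest and the lowest library, and the oxytocin libraries all fell inside its range. The 16S rRNA stood at 3132, 3798, 3343, 2983 and 3101 CPM after oxytocin, and at 3926, 3916, 3312, 3219 and 2921 CPM after saline, in the same order of replicates. Saline replicates 1 and 2 were the highest in 16S and saline replicate 5 the lowest, with the oxytocin libraries between them.

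**Figure D1:**
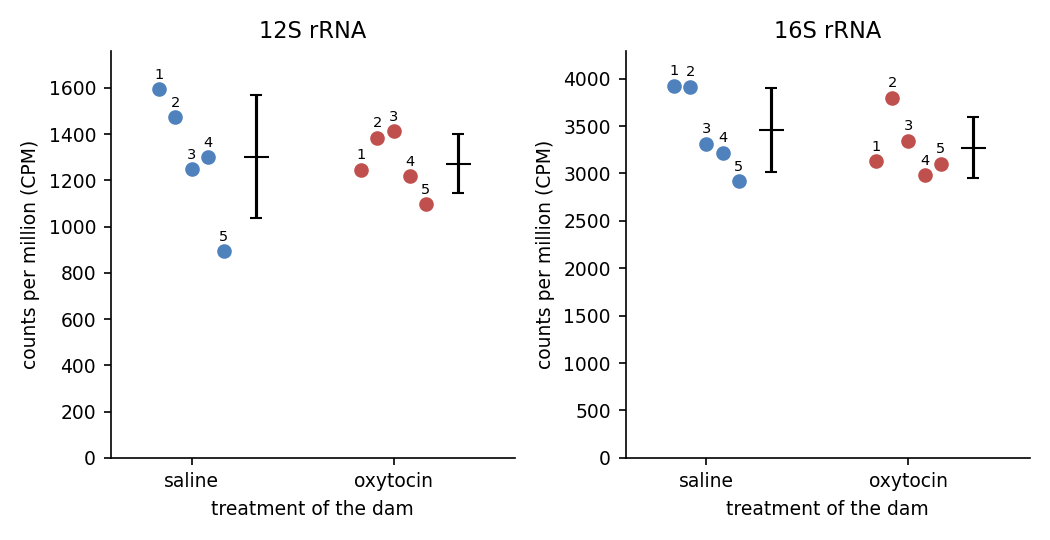
Level of 12S rRNA (left) and 16S rRNA (right) in CPM, 1 point per fetus with its replicate number, with the group mean and SD in black (n = 5 each). For both rRNAs the oxytocin libraries lie within the range of the saline libraries.

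In edgeR's quasi-likelihood test across all features, the log2 fold change of oxytocin over saline was -0.008 ± 0.12 (SE) for 12S, with a 95% interval from -0.29 to 0.28. For 16S it was -0.054 ± 0.086 (SE), with an interval from -0.25 to 0.14. In this edgeR test 12S had an unadjusted p of 0.949 and 16S one of 0.542, and for both the adjusted p came to 0.9997. Of the 3 members that entered the test, 0 passed an adjusted p of 0.05, beside 0% of the 14400 features tested. At an unadjusted p under 0.05 in edgeR, 0 of the 3 members passed, beside 3.57% of all features, and DESeq2, which gave tRNA-Leu-UUR no adjusted p, and limma voom called 0 of them as well. Groups without overlap were seen for 0 of the 3 members, beside 0.701% of all features. The sign of the 12S change is not determined by these data, since it turned to 0.013 with limma voom and ran from -0.12 without saline replicate 5 to 0.078 without saline replicate 1. The 16S estimate ran from -0.117 without oxytocin replicate 2 to -0.0014 without saline replicate 1.

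The gene that follows the unit had a higher estimate in the same fit. The level of mt-nd1 per kilobase of gene (RPKM) averaged 4359 ± 249 in the oxytocin libraries and 3709 ± 183 in the saline libraries (SD over 5 fetuses). In RPKM the groups overlapped, with oxytocin replicate 4 at 3984 and saline replicate 4 at 3991. In log2 CPM as scaled for the fit they were narrowly apart. The lowest oxytocin library stood at 11.906 there and the highest saline library at 11.896. The change on the log2 scale, 0.26 ± 0.049 (SE), reached an edgeR adjusted p of 0.561. The change of mt-nd2, the complex I gene the submitters name, came to 0.36 ± 0.056 (SE), at an edgeR adjusted p of 0.162. The 13 mitochondrial protein genes had a median log2 fold change of 0.22 and 13 of 13 positive estimates, beside a median of -0.003 and 6944 positive estimates over the 14400 features. At an unadjusted p under 0.05 in edgeR were 13 of the 13, beside 3.57% of all features, and 0 of the 13 passed after adjustment over all features.

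**Figure D2:**
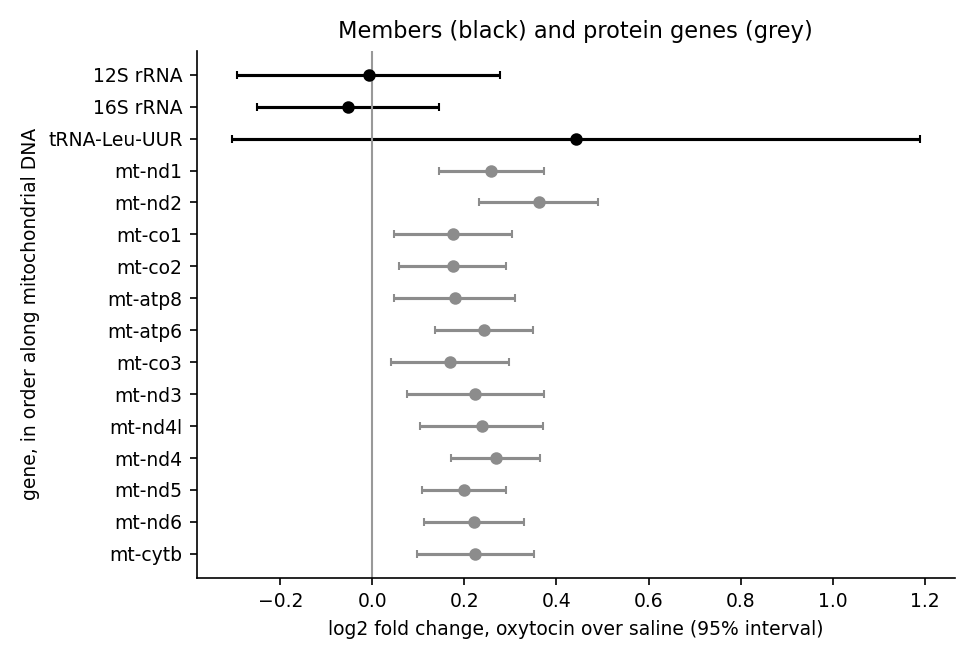
Log2 fold change of oxytocin over saline with its 95% interval for the 3 members that entered the test (black) and the 13 mitochondrial protein genes (grey), in genome order. The 12S and 16S estimates lie near 0, at -0.008 and -0.054, while the protein genes lie between 0.17 and 0.36. The 12S interval, from -0.29 to 0.28, reaches into the range of the protein-gene estimates.

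Per kilobase, both rRNAs lay below most of the mRNAs from the same genome in these oligo-dT selected libraries, and no unselected library was analysed here. The 12S rRNA had 1343 RPKM on average over the 10 libraries, from 934 to 1665, and the 16S rRNA 2142 RPKM, from 1859 to 2499. All 13 protein genes lay above 12S in each of the 10 libraries, and at least 9 of the 13 lay above 16S. Among the protein genes the lowest was mt-nd3, another complex I subunit, at 1790 RPKM, and the highest was mt-atp6, a subunit of ATP synthase, at 10113 RPKM. The median of the 13 was mt-nd1 in all 10 libraries. Against it, 12S stood at an RPKM ratio of 0.305 ± 0.027 with oxytocin and 0.366 ± 0.071 with saline (SD, n = 5 each). The corresponding ratio of 16S was 0.478 ± 0.044 with oxytocin and 0.594 ± 0.076 with saline (SD, n = 5 each). Even so, the rRNAs were among the most abundant RNAs in these libraries, with 12S ranked from 24 to 35 and 16S from 15 to 23 by RPKM among all features.

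**Figure D3:**
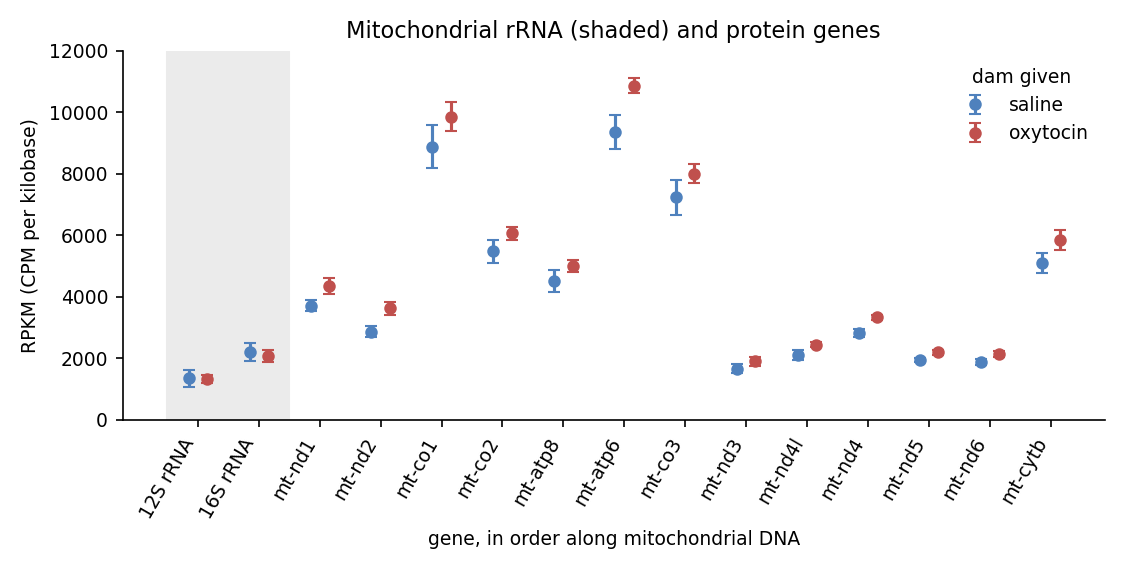
RPKM of the 12S and 16S rRNA genes (shaded) and the 13 mitochondrial protein genes in genome order, as mean and SD of 5 fetuses per group. Both rRNAs lie under mt-nd1, and 12S is below every protein gene, the lowest of which is mt-nd3 at 1790 RPKM over all libraries.

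The rRNA remainder was also expressed as 12S plus 16S counts per count on the 13 protein genes, a ratio free of scaling between libraries. It was 0.0746, 0.0852, 0.0779, 0.0707 and 0.0712 in oxytocin replicates 1 to 5, and 0.102, 0.105, 0.0841, 0.0830 and 0.0797 in the saline replicates. Saline replicates 1 and 2 were the highest of all, and the groups overlapped through oxytocin replicate 2, which lay above saline replicates 3, 4 and 5. On the log2 scale the oxytocin mean was -3.72 ± 0.11 and the saline mean -3.47 ± 0.18 (SD, n = 5 each). The difference of -0.25, with a 95% interval from -0.51 to -0.029, had an exact two-sided permutation p of 0.0397, which became 0.198 when adjusted over 5 such tests. The result therefore fails the correction. With 1 library left out the unadjusted exact p ran from 0.0159 to 0.0794, and it was past 0.05 in 3 of 10 cases, those without oxytocin replicate 2, saline replicate 4 or saline replicate 5. Of the terms of this ratio, the protein-gene levels had the positive estimates given above, and the rRNA levels had estimates near 0. The 12S interval, from -0.29 to 0.28, includes the protein-gene median of 0.22. The 16S interval, from -0.25 to 0.14, does not.

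The whole unit took 0.454% ± 0.042 of all assigned counts in the oxytocin libraries and 0.476% ± 0.070 in the saline libraries (SD, n = 5 each). The lowest share, in saline replicate 5, was 0.382% (Wilson 95% interval 0.379% to 0.384%), and the highest, in saline replicate 1, was 0.552% (0.549% to 0.555%). The difference of -0.022 percentage points was smaller than the spread between fetuses (exact two-sided permutation p = 0.571, adjusted p = 0.571). It was -0.0027 without saline replicate 1 and -0.045 without saline replicate 5. Of mitochondrial counts alone, the unit took 7.05% ± 0.51 with oxytocin and 8.30% ± 0.99 with saline (SD, n = 5 each), a difference of -1.25 percentage points with an unadjusted exact permutation p of 0.0397; most of that denominator is protein-gene counts, so it is close to the ratio above and no separate result.

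The ratio of 12S to 16S showed no difference between the groups beyond the spread between fetuses. Per kilobase, the ratio was 0.652, 0.598, 0.692, 0.670 and 0.581 in oxytocin replicates 1 to 5. In saline replicates 1 to 5 it was 0.666, 0.617, 0.618, 0.663 and 0.502. Every library therefore held less 12S than 16S per kilobase, and saline replicate 5 was the lowest. Put the other way, 16S exceeded 12S by 1.61-fold ± 0.16 (SD, n = 10), from 1.44-fold to 1.99-fold. On the log2 scale of raw counts the ratio averaged -1.36 ± 0.11 with oxytocin and -1.43 ± 0.17 with saline (SD, n = 5 each). The difference of 0.063 had a 95% interval from -0.12 to 0.27 and did not pass (exact two-sided permutation p = 0.563, adjusted p = 0.571). Without saline replicate 5 the saline mean was -1.36 ± 0.061 (SD, n = 4) and the difference was -0.007.

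Counting error was small beside these differences between fetuses. The share of 12S in the summed rRNA counts was 23.4% in saline replicate 5 (Wilson 95% interval 23.1% to 23.8%) and 29.7% in oxytocin replicate 3 (29.4% to 30.0%). Each library held at least 16595 counts of 12S and 54195 of 16S. These intervals cover counting error only, because the reads carry no molecular identifiers and may be copies of each other.

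**Figure D4:**
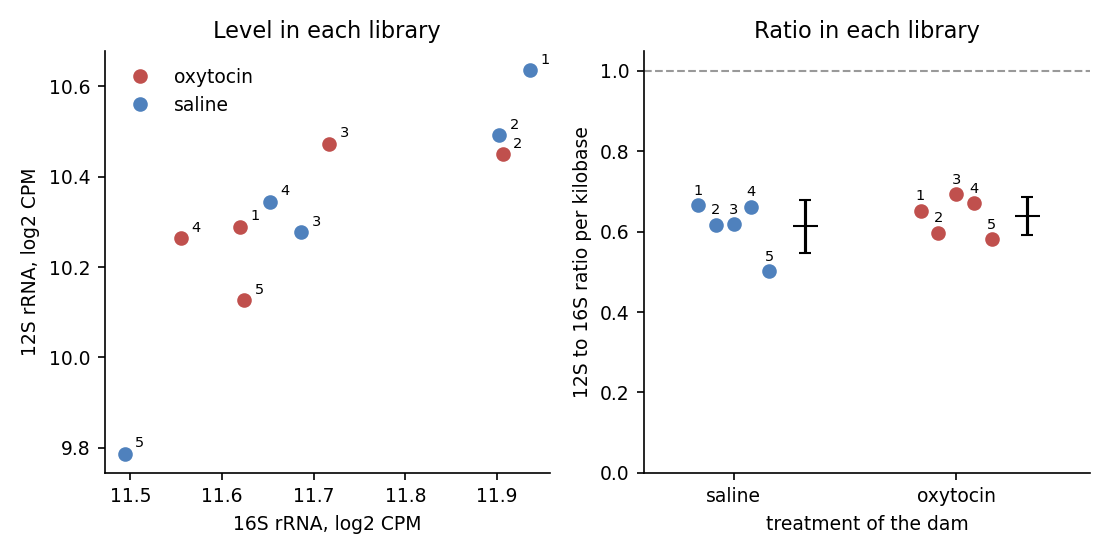
Left, log2 CPM of 12S rRNA against 16S rRNA, 1 point per fetus with its replicate number. Right, ratio of 12S to 16S per kilobase by group with mean and SD in black (n = 5 each), where the dashed line marks equal levels; all 10 libraries lie below it, from 0.502 to 0.692.

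Across fetuses the rRNAs rose and fell together. The log2 CPM of 12S and of 16S were correlated over the 10 libraries (Pearson r = 0.834, permutation p = 0.00048, adjusted p = 0.00576 over 12 relations). Spearman's rho was 0.879 (permutation p = 0.00158, adjusted p = 0.019), and r was 0.763 without saline replicates 1 and 5, which lie farthest from the median of 12S. Deviations from the group means gave r = 0.851. Both measures share the library and its scaling. The mean of 12S and 16S had r = 0.135 with the mean of the 13 protein genes (permutation p = 0.708, adjusted p = 0.850; rho = -0.055, permutation p = 0.890, adjusted p = 0.890). That r was -0.306 without saline replicates 2 and 5, and 0.429 for deviations from the group means. With log2 total count the same mean had r = 0.240 (permutation p = 0.487, adjusted p = 0.835; rho = 0.479, permutation p = 0.167, adjusted p = 0.384), 0.581 without oxytocin replicates 1 and 2, and 0.316 for deviations. In a relation chosen after the values had been seen, the next gene downstream, mt-nd1, gave r = 0.212 with 12S (permutation p = 0.581, rho = 0.091 with permutation p = 0.811). With 16S it gave r = -0.014 (permutation p = 0.968, rho = 0.067 with permutation p = 0.864). Over these 4 tests adjusted p ran from 0.850 to 0.968, and without the 2 libraries farthest in mt-nd1 r was 0.105 and -0.056. The group means of mt-nd1 differ, and deviations from the group means gave r = 0.384 with 12S and 0.280 with 16S.

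The rRNA levels were also spread more widely over the fetuses than the mRNA levels, a description without a test. The SD within groups of log2 CPM was 0.249 for 12S and 0.162 for 16S. Among the 13 protein genes it ran from 0.055 to 0.114, with a median of 0.096, and its median over all 14400 features was 0.129. Without saline replicate 5 it was 0.151 for 12S and 0.141 for 16S, beside a highest value of 0.110 among the protein genes. The mean absolute deviation of the rRNA level from its group median was 0.098 with oxytocin and 0.172 with saline on the log2 scale, a difference of -0.075 that did not pass (exact two-sided permutation p = 0.389, adjusted p = 0.571). It ran from -0.118 to -0.028 with 1 library left out.

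The level of 12S moved with the order of the libraries in the titles. The titles number the libraries from 11 to 20, with saline at 11, 13, 16, 18 and 20 and oxytocin at 12, 14, 15, 17 and 19, and the labels do not say what the number counts. Over the 10 libraries 12S fell with this number (Pearson r = -0.802, permutation p = 0.00226, adjusted p = 0.0136; Spearman rho = -0.806, permutation p = 0.00692, adjusted p = 0.0415). The relation was weaker without libraries 11 and 20, at r = -0.610. For 16S, r was -0.742 (permutation p = 0.0159, adjusted p = 0.0637; rho = -0.673, permutation p = 0.038, adjusted p = 0.152), and -0.514 without the same libraries. The 16S relation thus fails the correction, and its unadjusted permutation p was 0.0603 without saline replicate 1 and 0.0615 without saline replicate 5. The log2 ratio of 12S to 16S gave r = -0.539 with the number (permutation p = 0.104, adjusted p = 0.313; rho = -0.382, permutation p = 0.281, adjusted p = 0.482), and -0.109 without libraries 11 and 20. An r at least as far from 0 was found for 1.31% of all features in the case of 12S and for 2.98% in the case of 16S. For mt-nd1 r was -0.087 (permutation p = 0.805, adjusted p = 0.878; rho = -0.055, permutation p = 0.890, adjusted p = 0.890; 0.012 without libraries 11 and 20), and among the 13 protein genes it ran from -0.401 to 0.233. These relations were chosen after the values had been seen, and what the number stands for was not tested. With the number as a covariate in edgeR, the log2 fold changes of 12S and 16S were -0.00058 and -0.053, each at an adjusted p of 0.9993.

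Almost no reads were assigned to the tRNA genes of the unit. The tRNA-Phe gene, whose product carries phenylalanine, had 1, 1, 0, 0 and 0 counts in oxytocin replicates 1 to 5 and 2, 0, 0, 1 and 0 in the saline replicates. In the 6 libraries at 0, a count of 0 allows a level of up to 0.135 to 0.162 CPM (3 counts of the total). The tRNA-Val gene had 2, 1, 4, 4 and 2 counts after oxytocin and 1, 1, 1, 2 and 2 after saline. The tRNA-Leu-UUR gene, which also holds the binding site of the transcription terminator MTERF1, had 11, 22, 12, 8 and 12 counts after oxytocin and 8, 6, 11, 11 and 5 after saline. No library had more than 22 counts on any of the 3, and the groups overlapped in each.

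Summed over the 10 libraries, tRNA-Phe had 5 counts (exact Poisson 95% interval 1.62 to 11.7), tRNA-Val 20 (12.2 to 30.9) and tRNA-Leu-UUR 106 (86.8 to 128). Per kilobase this is 0.350, 1.38 and 6.63 RPKM in the pooled libraries, in that order, so the level differed between neighbours beyond counting error. The 12S rRNA was 3857-fold above tRNA-Phe per kilobase (counting interval 1653 to 11879). The 16S rRNA was 1556-fold above tRNA-Val (1008 to 2548) and 324-fold above tRNA-Leu-UUR (268 to 396). Because the features abut, a read across a boundary overlaps a tRNA and its neighbour. How the counting treated such a read is not given in the sources used here, and the tRNA features are only 67 to 75 bases long.

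**Figure D5:**
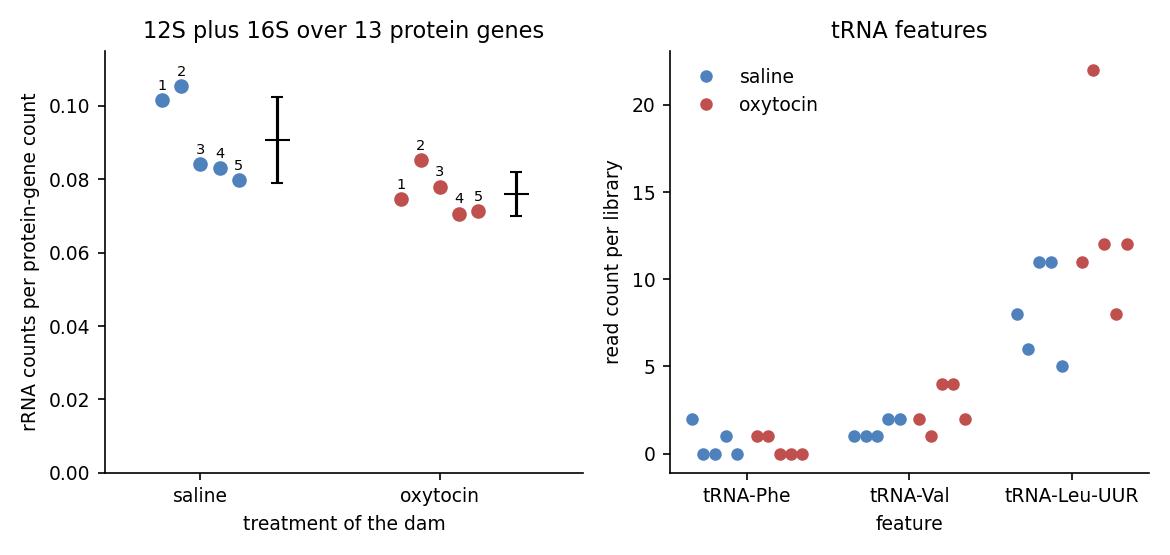
Left, counts on 12S plus 16S rRNA per count on the 13 mitochondrial protein genes, 1 point per fetus with its replicate number, and mean and SD in black (n = 5 each). Right, read counts of the 3 tRNA features in each library; no library has more than 22 counts on any of them.

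Of the 3 tRNAs, only tRNA-Leu-UUR passed the filter on low counts, so tRNA-Phe and tRNA-Val were not tested. The edgeR estimate for it was a log2 fold change of 0.44 ± 0.32 (SE), 95% interval -0.31 to 1.19, at an adjusted p of 0.9997. The estimate was 0.20 without oxytocin replicate 2, the library with 22 counts, and 0.32 without saline replicate 2 or without saline replicate 5. The 3 tRNAs together took 0.0153% ± 0.0032 of the unit's counts with oxytocin and 0.0112% ± 0.0039 with saline (SD, n = 5 each). This difference of 0.0041 percentage points did not pass (exact two-sided permutation p = 0.111, adjusted p = 0.278). It was past 0.05 unadjusted without saline replicate 4, at 0.0054 percentage points (exact permutation p = 0.0317).

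Low counts were not particular to the tRNAs of the unit among the 22 mitochondrial tRNA features. Ordered by counts over the 10 libraries, tRNA-Phe was the lowest, tRNA-Val the third and tRNA-Leu-UUR the ninth. The other 11 plus-strand tRNAs ran from 12 counts for tRNA-Trp to 723 for tRNA-Met, with a median of 83, so that tRNA-Leu-UUR lay above the middle of that list. The 8 minus-strand tRNAs ran from 237 counts for tRNA-Tyr to 6600 for tRNA-Ser-UCN. The handling of strand is not given in the sources used here, so reads from RNA of the opposite strand may be included in these counts.

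Outside the unit, the features whose log2 CPM followed the mean of 12S and 16S most closely were nuclear. Among 14397 features the highest Pearson r over the 10 libraries was 0.922, for ENSRNOG00000049235 on chromosome 10, which held 469 to 803 counts per library. The next was 0.908, for ENSRNOG00000014637 on chromosome 7, with 6677 to 12109 counts. The fifth stood at 0.890, and 3 features exceeded 0.9. No names are paired with these identifiers, and the r values are a description, taken as the highest of many. The 13 protein genes had r from -0.243 for mt-nd2 to 0.511 for mt-co1, a subunit of cytochrome c oxidase, with a median of 0.170, beside a median of -0.002 over all features.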

How the data were processed

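The values deposited by the authors are whole-number read counts per gene, CPM (count scaled to the same total in every library) and RPKM (CPM per kilobase of listed length), per the file headers. The last 2 were recomputed from the counts, and the largest deviation was 7.09e-11. The submitters' processing notes name STAR 2.0.4b, Subread, featureCounts 1.45, bcl2fastq and Rnor_5.0. Handling of multi-mapped reads, which matters where nuclear DNA holds mitochondrial copies, is not given in the sources used here.

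Counts were filtered with filterByExpr and scaled by TMM, and oxytocin was compared with saline in 10 libraries without covariates by edgeR's quasi-likelihood test (edgeR 4.0.16, R 4.3.3; Benjamini-Hochberg over 14400 features; threshold 0.05). The fit was tested on simulated data. Log2 CPM used a prior count of 2. A standard error is the log2 fold change over the root of F, and its 95% interval uses 8 residual degrees of freedom. Single values were compared by exact two-sided permutation tests (scipy 1.17.1; smallest p 0.0079), inverted for intervals, and adjusted over 5 tests. Relations used 100000 permutations and were adjusted over 12, of which 8 were added after seeing the data. Library pairs within a group differed by 4.08 to 18.3 chi-square per degree of freedom, so none was counted as a duplicate.

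Alternatives were DESeq2 1.42.0, limma 3.58.1, other scalings, filters and denominators, the title number as covariate, and leaving out each library. The genes named are the 5 members, mt-nd1, mt-nd2, the extremes of the 13 protein genes by RPKM and the 5 features most like the rRNAs, of which 2 are printed. The members and lists were chosen with earlier results of these data known. Identifiers are not paired with names, so planned lists of mitochondrial RNA processing, mitoribosome, histone and cell type marker genes, the last a check of the tissue label, were not analysed here.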

Additional observations from a re-analysis of the deposited data

Results flagged for a closer look

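Dixon's test with a critical value of 0.71 was run 22 times, for each measure and group, and singled out 1 library, where chance gives about 1 in 20. The log2 ratio of 12S to 16S counts was -1.71 in saline replicate 5, while the other saline libraries lay between -1.41 and -1.30, and the gap was 0.727 of the group's range. That library also had the lowest 12S level, at 894 CPM, and the lowest 16S level, at 2921 CPM. Its total of 18555172 counts was the smallest of the 10, and its title number was the highest. Over the 10 libraries the ratio gave r = 0.262 with log2 total count (permutation p = 0.430, adjusted p = 0.835; rho = 0.236, permutation p = 0.514, adjusted p = 0.772; r = 0.564 without oxytocin replicates 1 and 2). With the title number it gave r = -0.539 (permutation p = 0.104, adjusted p = 0.313), and -0.109 without saline replicates 1 and 5.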

How the results depend on the processing

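With all libraries, the log2 fold change of 12S ran from -0.034 (library size alone) to 0.013, the latter with limma voom, where the sign reversed. Without each library it ran from -0.118 to 0.078. For 16S the range was -0.080 to -0.050 with all libraries and -0.117 to -0.001 without each, and for tRNA-Leu-UUR 0.41 to 0.45 and 0.20 to 0.59; a minimum of 10 counts in every library removed the latter. Adjusted p was at least 0.933 for these 3 members under the same alternatives, apart from DESeq2, which gave none for tRNA-Leu-UUR. DESeq2 called 7 features in all where the main edgeR fit called 0, none of them a member. Features at an unadjusted p under 0.05 numbered 514, and 420 to 841 without each library. The difference in the 12S to 16S ratio ran from -0.0072 (without saline replicate 5, sign reversed) to 0.097 without each library. The log2 ratio of rRNA to protein-gene counts differed by -0.246 as a mean of log2 RPKM (exact permutation p = 0.0556). It differed by -0.242 without mt-nd2, and by -0.242 without overlapping or minus-strand protein genes (unadjusted exact permutation p = 0.0317 for each). Without each library the difference ran from -0.296 to -0.195. With mitochondrial counts as the denominator, the share of the unit differed by -1.25 percentage points (exact permutation p = 0.0397). Without each library the tRNA share differed by 0.0028 to 0.0054 percentage points, and r of 16S with the title number ran from -0.922 to -0.648. The cause of these changes was not tested. With at most 4 counts per library, tRNA-Phe and tRNA-Val were too low for a comparison of the groups. No paired analysis was possible because replicate numbers follow accession order only.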
